A study of Mus musculus with 30 samples.

Results

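Chemokines are small secreted or membrane-anchored proteins that steer leukocytes, and 67 of the 55487 rows of a count table from 30 mouse heart libraries belong to this family. The 67 are the protein-coding rows whose GENCODE symbol is Ccl, Cxcl, Ccr, Cxcr or Ackr followed by a digit, with Cx3cl1, Cx3cr1, Xcl1 and Xcr1. They carry 62 symbols and comprise 44 ligand rows and 23 receptor rows. Another 3 symbols, Cxcl11 and the pseudogenes Ccl19-ps1 and Ccl19-ps3, are not protein-coding in this annotation and were left out.

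Poly(A) RNA of hearts was sequenced 8 weeks after transverse aortic constriction (TAC), in which a microclip of 1 of 2 sizes on the transverse aorta loads the left ventricle, or after sham surgery. In the floxed cohort, mice with a floxed Cpt1a gene had sham surgery (FF_sham) or TAC (FF_TAC), and mice with a cardiac-specific Cpt1a knockout had the same procedures (KO_sham, KO_TAC), with 4 libraries in each group. In the AAV9 cohort, C57Bl/6 mice had received PBS (PBS_sham and PBS_TAC, 3 libraries each) or AAV9.Cpt1a, a viral vector in which the promoter of cardiac troponin T drives Cpt1a (AAV_sham and AAV_TAC, 4 libraries each). Cpt1a is the enzyme that passes long-chain fatty acids to the mitochondrion as acylcarnitines. The Cre driver of the knockout, the ages of the mice and the clip size of each mouse are not given in the sources used here. The KO_TAC titles name both procedures, and genotype and treatment labels decided the group. Libraries of a group are numbered in the labels without a statement that they are separate hearts, so p-values measure only the spread between these libraries, which may be technical.

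Chemokine ligands bind heptahelical receptors that signal through Gi proteins, and the gradient guides the cell toward the source. CC and CXC ligands are named for the spacing of their first cysteines; CXC ligands with a Glu-Leu-Arg motif attract neutrophils, the interferon-induced ones attract T and NK cells, and many CC ligands attract monocytes. Atypical receptors (Ackr genes) bind chemokines without Gi signalling and take them up or carry them across cells. In the heart, macrophages, endothelium, fibroblasts and myocytes can all release chemokines when the tissue is loaded or injured.

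Library totals ran from 14839758 to 22070373 counts. Levels are given as CPM, counts scaled to a common library total after TMM normalization. Summed haemoglobin transcripts split the libraries: 7 held 1.40 to 51.1 CPM and the other 23 held 293.9 to 943 CPM. The 7 are KO_TAC 1 to 4 and the libraries labelled FF_TAC 2, FF_TAC 3 and KO_sham 2, so the whole KO_TAC group lies on the low side. Cpt1a itself stood at 38.6, 44.3, 53.4 and 46.8 CPM in FF_sham, 49.9, 20.97, 16.7 and 34.9 in FF_TAC, 23.1, 46.8, 20.8 and 23.8 in KO_sham, and 19.7, 11.9, 14.3 and 11.3 in KO_TAC. The library labelled KO_sham 2 lay among the floxed controls, and those labelled FF_TAC 2 and 3 lay among the knockouts. Every direction that uses FF_TAC or KO_sham therefore rests in part on libraries that go against their genotype label, although the exons removed by the knockout are not given in the sources used here. Cpt1a was at 36.7, 48.9 and 69.8 CPM in PBS_sham and 85.8, 54.8, 72.2 and 66.1 in AAV_sham, and at 55.7, 59.01 and 39.5 in PBS_TAC and 51.1, 61.5, 58.02 and 43.8 in AAV_TAC. Cardiac muscle markers (6 genes) summed to 24883 CPM in PBS_sham 3 and to 47435 to 68735 CPM in the others. KO_TAC 1 stood apart from the rest of its group in atrial markers (8509 CPM against at most 6.797 CPM), neutrophil markers and B-cell markers. A lower bulk level cannot tell fewer cells of a type apart from less RNA per cell.

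Of the 67 rows, 38 passed edgeR's filter on low counts in the floxed cohort and 30 of these also passed in the AAV9 cohort. The 8 that passed in the floxed cohort alone are Ccl3, Ccl4, Ccl5, Ccl22, Cxcl3, Cxcl5, Cxcr6 and Ackr1, most of which passed through the libraries in which they were high, so their difference there is partly given by the filter. Another 15 rows were too low to measure: Ccl17, Ccl19, Ccl20, 1 copy of Ccl21b, Ccl28, Ccr3, Ccr6, Ccr7, Ccr8, Ccr9, Cxcl17, Cxcr2, Cxcr3, Cxcr5 and Xcl1. The remaining 14 were not detected, with 3 counts or fewer in every library: Ccl1, Ccl26, Ccl27b, Ccr1l1, Ccr4, Cxcl15, Cxcr1 and 7 further copies of Ccl19, Ccl21a, Ccl21b, Ccl21c and Ccl27. A floor of 3 counts equals 0.123 to 0.227 CPM, depending on the TMM-scaled library total, and covers counting error only. The neutrophil receptors Cxcr1 and Cxcr2 are among these, while their ligand Cxcl1 reached 1146 CPM. Copies of Ccl19, Ccl21 and Ccl27 lie on unplaced scaffolds as well as on chromosome 4, so reads could be split between near-identical copies and the tested rows of these genes, Ccl21a and Ccl27a, are uncertain.

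Per kilobase of exon, the family in control hearts was led by the homeostatic pair Cxcl12 and Ackr3. Cxcl12 averaged 28.3 CPM per kilobase in FF_sham and Ackr3, a scavenger of that ligand, averaged 19.8, followed by Cxcl14 at 12.5. The order in KO_TAC was different: Cxcl1 averaged 401 CPM per kilobase, Ccl2 349.6, Ccl7 152 and Cxcl2 119. PBS_sham resembled FF_sham at the top of the order, with Cxcl12 at 22.2 and Ackr3 at 18.4 CPM per kilobase.

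Promoters of 4 ligands that were high in all 7 haemoglobin-low libraries are shown because they carry the binding consensus of NF-kB, the transcription factor through which interleukin-1 and TNF induce chemokines. The sequences are RefSeq's on GRCm38.p6 and cover bases 180 to 31 upstream of the start, written 5′ to 3′ on the gene's strand, with matches to the NF-kB consensus on either strand in capitals. Cxcl12, the ligand that fell in KO_TAC, is also shown and has no capitals.
Cxcl1, chr5:90891065-90891214, plus strand: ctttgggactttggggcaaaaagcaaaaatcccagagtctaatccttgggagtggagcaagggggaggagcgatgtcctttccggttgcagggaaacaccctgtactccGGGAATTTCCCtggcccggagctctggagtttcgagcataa
Cxcl2, chr5:90903719-90903868, plus strand: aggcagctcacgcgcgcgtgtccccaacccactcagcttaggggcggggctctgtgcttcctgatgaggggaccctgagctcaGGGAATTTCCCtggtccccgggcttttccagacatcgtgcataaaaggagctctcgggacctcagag
Cxcl3, chr5:90785921-90786070, plus strand: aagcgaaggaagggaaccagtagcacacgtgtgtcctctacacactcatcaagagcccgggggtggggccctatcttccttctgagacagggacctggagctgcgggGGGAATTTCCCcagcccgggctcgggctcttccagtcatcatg
Cxcl10, chr5:92348920-92349069, minus strand: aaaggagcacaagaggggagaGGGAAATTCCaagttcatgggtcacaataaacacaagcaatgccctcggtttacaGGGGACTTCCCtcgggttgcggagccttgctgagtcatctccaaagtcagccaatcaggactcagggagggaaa
Cxcl12, chr6:117168355-117168504, plus strand: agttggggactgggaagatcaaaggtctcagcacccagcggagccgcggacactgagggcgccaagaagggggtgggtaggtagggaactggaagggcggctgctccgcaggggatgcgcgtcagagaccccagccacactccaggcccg
Cxcl1, Cxcl2 and Cxcl3, neighbouring genes on chromosome 5, hold the same run of capitals at 71 to 61, 97 to 87 and 73 to 63 bases upstream, and Cxcl10 holds matches at 104 to 94 and at 159 to 150. A match occurred in the 250 bases upstream of 7.25% of 32851 RefSeq promoters and of 11 of the 46 family symbols with an entry: Ackr2, Ccl1, Ccl9, Ccl20, Ccr1, Ccr3, Ccr6, Cxcl1, Cxcl2, Cxcl3 and Cxcl10. The AP-1 motif TGANTCA, read on both strands, occurred in 6.75% of promoters and in 6 family symbols, among them Cxcl10, where it is left in lower case. The percentages count promoter entries, whereas the family figures count symbols with a match in any entry. They are therefore unlike measures. Matches are letters in a window and were not measured as binding. Ccl2 has no entry. No match was found for Ccl3, Ccl4, Ccl5, Ccl7, Ccl22, Cxcl5 or Cxcl16, also high in all 7 libraries, though some may lack an entry. Of the other symbols with a match, Ccl9, Ccr1 and Ackr2 did not set the 7 libraries apart from the rest of the floxed cohort. Ccl1, Ccl20, Ccr3 and Ccr6 were too low to measure or not detected. A link between motif and level was not tested.

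**Figure D1:**
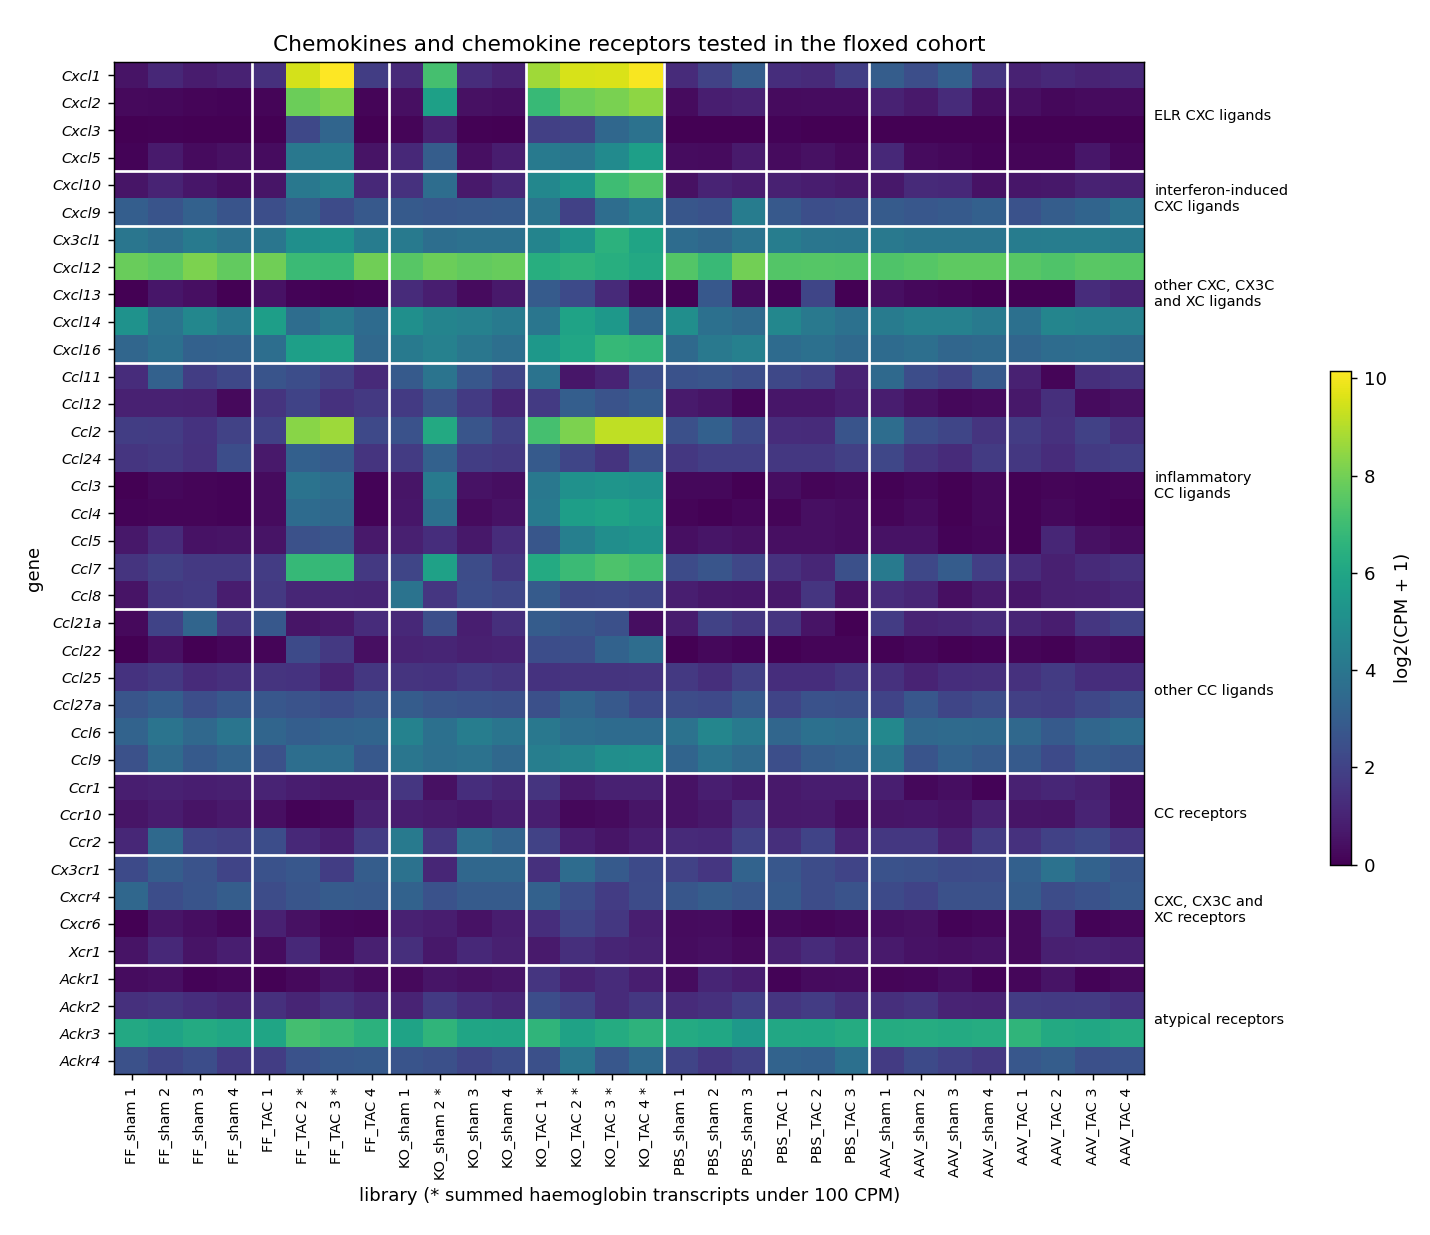
Levels of 37 of the 38 family members tested in the floxed cohort, as log2(CPM + 1), with 1 column per library, rows ordered by role and stars on the 7 libraries with under 100 CPM of haemoglobin transcripts. Cxcl1, Cxcl2, Cxcl5, Ccl2, Ccl3, Ccl4 and Ccl7 are brighter in the 7 starred columns than in the others. Cxcl3 is dim in several starred columns, and Cxcl12 and Ackr3 are bright throughout.

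Within the floxed cohort, 12 of the 38 tested members were higher in all 7 haemoglobin-low libraries than in any of the other 9, against 3.96% of the 15596 genes tested. None of the members was lower in all 7, against 1.96% of genes. The 12 are Ccl2, Ccl3, Ccl4, Ccl5, Ccl7, Ccl22, Cxcl1, Cxcl2, Cxcl3, Cxcl5, Cxcl10 and Cxcl16, and all of them are ligands. Of these, Ccl3, Ccl4, Ccl5, Ccl22, Cxcl3 and Cxcl5 passed the filter in the floxed cohort alone, so their place is partly given by it. For the same 12, the 7 libraries also lay above all 14 libraries of the AAV9 cohort. These 12 were picked by the haemoglobin split, so their order by it was given in advance. For them, FF_TAC 1 and 4 stood with the sham libraries and the libraries labelled FF_TAC 2 and 3 with KO_TAC. The other 26 members overlapped between the 7 libraries and the other 9. Cxcl12, among the 26, was at 233 CPM in the library labelled KO_sham 2, with the other KO_sham libraries. The part that the split plays in the comparisons below was not tested beyond the fits named there, and for KO_TAC the split and the group cannot be told apart.

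KO_TAC was compared with KO_sham to ask how TAC changed the family in knockout hearts. Of the 38 members tested, 12 rose and 3 fell (edgeR, adjusted p under 0.05), when 25.8% of all genes tested were called, 14.3% higher and 11.5% lower. The members that rose were the ligands Cxcl3, Cxcl5, Cxcl10, Cxcl16, Cx3cl1, Ccl2, Ccl4, Ccl5, Ccl9 and Ccl22 and the atypical receptors Ackr1 and Ackr4. Of these, Cxcl3, Cxcl5, Ccl4, Ccl5, Ccl22 and Ackr1 passed the filter in the floxed cohort alone, so their rise is partly given by it. Those that fell included the ligand Cxcl12 and the monocyte receptor Ccr2. The median log2 difference was 1.03 over the 38 members and 0.02 over all genes. With a term for the haemoglobin split, 1 member, Cxcl12, was called, against 1.75% of genes. Since every KO_TAC library is haemoglobin-low, the term is set by the libraries labelled FF_TAC 2, FF_TAC 3 and KO_sham 2. These go against their genotype label, so differences with the term rest on them. With FF_TAC 2, FF_TAC 3 and KO_sham 2 left out of the cohort, a choice made after seeing the data, 17 members rose and 3 fell, against 23.4% of genes; 14 of these calls were among the 15, Ackr4 was no longer called (adjusted p = 0.0918), and the split and the comparison then coincide. Leaving out single libraries gave 8 calls without KO_sham 1 (against 17.9% of genes), 9 without KO_sham 3 (16%) and up to 20 without the library labelled KO_sham 2 (20%).

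Among the ELR ligands, Cxcl1 (chr5:90891241-90893115, ENSMUSG00000029380), a neutrophil attractant made by endothelium, fibroblasts and macrophages, stood at 0.436, 1.21, 0.692 and 0.942 CPM in FF_sham, 1.62, 734, 1146 and 2.61 in FF_TAC, 1.33, 141, 1.44 and 0.944 in KO_sham, and 419.9, 749, 769 and 1066 in KO_TAC. The other 9 libraries reached at most 2.61 CPM, and the library labelled KO_sham 2 was the lowest of the 7 haemoglobin-low ones. KO_TAC did not overlap KO_sham, but the difference missed the threshold (log2 difference 4.38, SE 1.79, edgeR adjusted p = 0.0801). Without KO_sham 2 it was 9.24 and passed (adjusted p = 0.00841), and with the haemoglobin term it was 1.63 (adjusted p = 0.111).

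Cxcl2, the macrophage-derived neighbour of Cxcl1, followed the same libraries. Its values were 0.187, 0.165, 0.115 and 0.0628 CPM in FF_sham, 0.112, 234, 290.2 and 0.113 in FF_TAC, 0.332, 53.8, 0.373 and 0.315 in KO_sham, and 114, 244, 280.1 and 346 in KO_TAC. KO_TAC lay above every KO_sham library, again without a call (log2 difference 4.18, SE 1.78, edgeR adjusted p = 0.0925). Cxcl3, another gene of the cluster, was close to zero outside the 7 libraries. It was measured at 0, 0.0550, 0 and 0 CPM in FF_sham, 0, 3.55, 8.84 and 0 in FF_TAC, 0.0947, 0.861, 0.0533 and 0 in KO_sham, and 2.82, 3.02, 9.54 and 13.4 in KO_TAC. Cxcl3 rose in KO_TAC (log2 difference 4.90, SE 1.34, edgeR adjusted p = 0.0178), with the KO_sham mean resting on the library labelled KO_sham 2, and the call was lost without KO_sham 1, 3 or 4 (adjusted p up to 0.0530).

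Cxcl5, an ELR ligand of epithelium and activated stroma, stood at 0.0623, 0.660, 0.231 and 0.377 CPM in FF_sham, 0.280, 15.8, 17.3 and 0.454 in FF_TAC, 1.28, 7.01, 0.320 and 0.734 in KO_sham, and 16.6, 14.9, 28.1 and 52.9 in KO_TAC. All KO_TAC libraries were above all KO_sham libraries and Cxcl5 rose (log2 difference 3.63, SE 1.07, edgeR adjusted p = 0.0242). The call was lost without KO_sham 1, 3 or 4 or KO_TAC 3 or 4 (adjusted p up to 0.0679). Markers of neutrophils, the cells that these ligands attract, were low in most libraries: 10 of them summed to 3.49 to 112 CPM in KO_TAC and 1.29 to 4.37 CPM in KO_sham, KO_TAC 1 alone accounting for the high end and KO_TAC 2 to 4 reaching no more than 6.72. Ly6g, a defining marker, was at 0 in all KO_TAC libraries, as it was in all of FF_sham, PBS_sham, PBS_TAC and AAV_TAC. Only 2 of the 10 markers passed the filter. Neither was called in KO_TAC against KO_sham, and 1 was called higher against FF_TAC, when 7.53% of all genes rose. The part of neutrophils in these results was not tested.

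**Figure D2:**
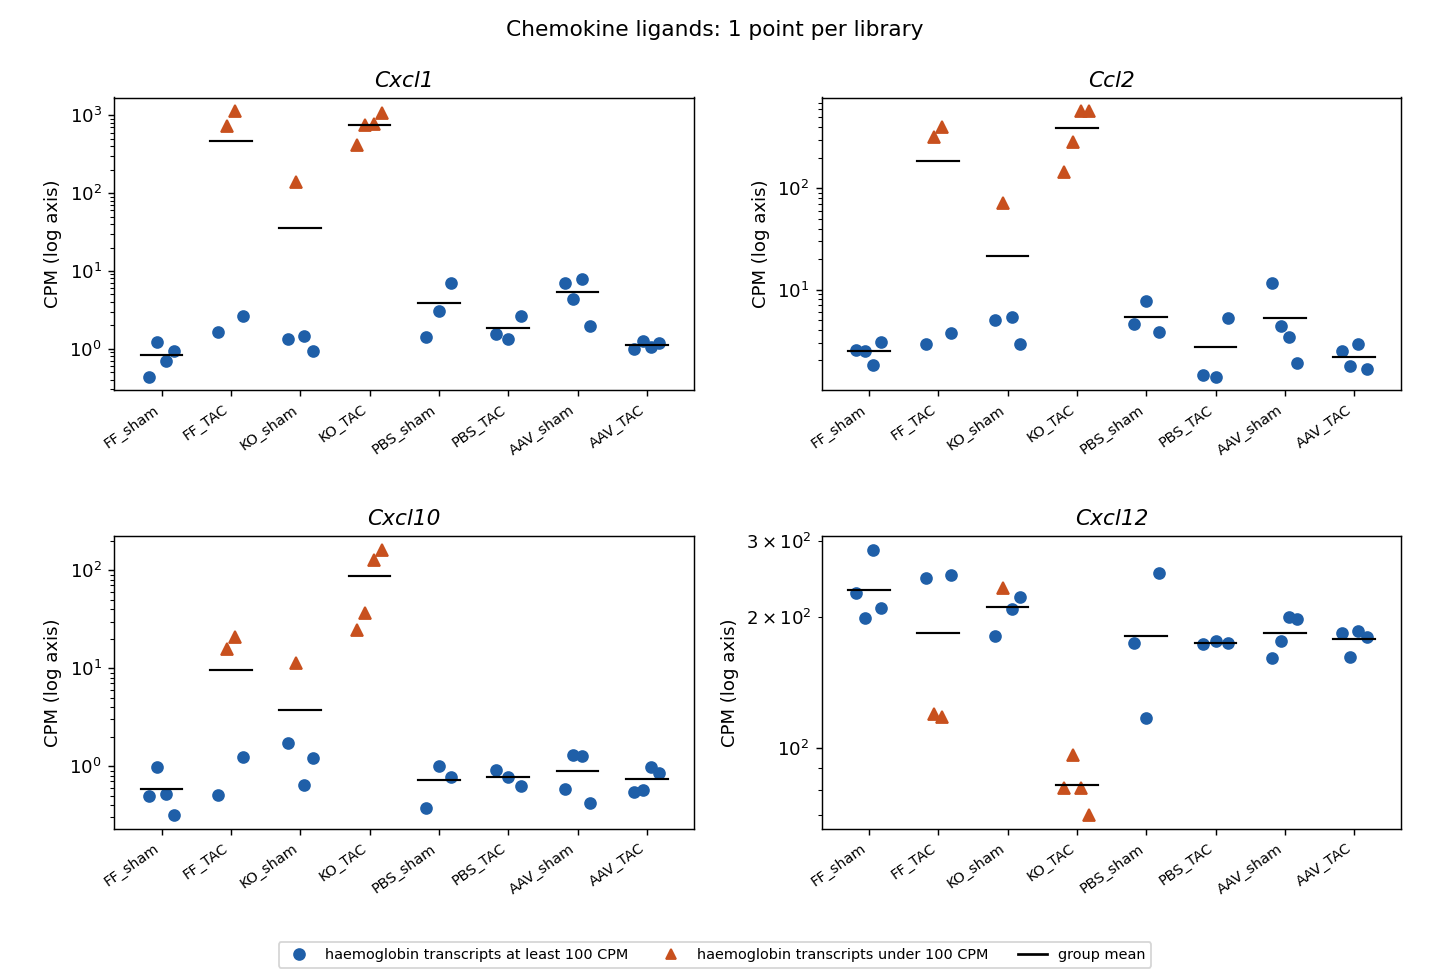
CPM on a log axis of Cxcl1, Ccl2, Cxcl10 and Cxcl12 in each of the 30 libraries by group, with triangles for the 7 libraries under 100 CPM of haemoglobin transcripts and bars at group means. Triangles of Cxcl1, Ccl2 and Cxcl10 sit above all circles, also in FF_TAC and KO_sham, and those of Cxcl12 sit low in KO_TAC and FF_TAC but not in KO_sham.

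The interferon-induced ligands attract activated T and NK cells through Cxcr3, which was too low to measure. Cxcl10 (chr5:92346638-92348889) was at 0.498, 0.990, 0.519 and 0.314 CPM in FF_sham, 0.503, 15.6, 21.03 and 1.25 in FF_TAC, 1.705, 11.3, 0.639 and 1.21 in KO_sham, and 24.9, 36.9, 129 and 163 in KO_TAC. KO_TAC 3 and 4 were the highest, and KO_TAC overlapped no other group, the library labelled KO_sham 2 included. Cxcl10 rose in KO_TAC against KO_sham (log2 difference 4.61, SE 1.07, edgeR adjusted p = 0.00868) and was 2.60 with the haemoglobin term (adjusted p = 0.094). Exons of Cxcl10 overlap 133 bases of Art3 on the opposite strand, and the strand setting of the counting is not given in the sources used here. Cxcl9, the other tested member of this class, did not pass: it was at 7.29, 5.22, 7.905 and 5.27 CPM in FF_sham, 4.36, 7.09, 3.98 and 6.24 in FF_TAC, 6.39, 5.78, 6.18 and 6.34 in KO_sham, and 13.8, 2.95, 11.2 and 17.8 in KO_TAC (log2 difference 0.91, SE 0.36, edgeR adjusted p = 0.0746).

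Cxcl12 (chr6:117168535-117181367, ENSMUSG00000061353), the homeostatic ligand of Cxcr4 that holds progenitor cells and lymphocytes in tissue, was the one ligand to fall. It stood at 227, 199.5, 287 and 211 CPM in FF_sham, 247, 119, 118 and 251 in FF_TAC, 181, 233, 209 and 223 in KO_sham, and 81.1, 96.1, 80.8 and 69.9 in KO_TAC. The groups were far apart, and the library labelled KO_sham 2 stood with the other KO_sham libraries, above the level of those labelled FF_TAC 2 and 3. Cxcl12 fell (log2 difference -1.36, SE 0.24, edgeR adjusted p = 0.00229), the call held in all 8 fits that left out 1 library of either group (-1.45 to -1.30), and with the haemoglobin term it was -1.02 (adjusted p = 0.0461). Against the 1 haemoglobin-low KO_sham library alone the difference was -1.52 and was not called (adjusted p = 0.476). Of 5 endothelial markers, Kdr (log2 difference -1.30, edgeR adjusted p = 0.00308), Tek, Cdh5 and Tie1 fell, when 11.5% of all genes fell, and Pecam1 was not called. The 5 summed to 453 to 633 CPM in KO_TAC and 641 to 835 CPM in KO_sham. Their part in the Cxcl12 result was not tested.

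Cxcl16, a membrane-bound ligand of Cxcr6 and scavenger of oxidised lipoprotein, was at 9.097, 12.5, 7.905 and 8.35 CPM in FF_sham, 11.9, 51.8, 56.4 and 9.75 in FF_TAC, 17.3, 21.2, 15.4 and 11.96 in KO_sham, and 41.3, 63.4, 112 and 102 in KO_TAC. KO_TAC lay above KO_sham throughout, and Cxcl16 rose (log2 difference 2.28, SE 0.49, edgeR adjusted p = 0.00599), also in all 8 fits without 1 library. Its exons share 552 bases with Zmynd15 on the opposite strand, so the value is uncertain. Cx3cl1 (fractalkine), which tethers Cx3cr1-bearing monocytes to endothelium, was at 14.8, 12.2, 17.1 and 13.2 CPM in FF_sham, 14.8, 32.3, 35.4 and 18.1 in FF_TAC, 16.6, 11.9, 13.002 and 13.004 in KO_sham, and 23.2, 38.4, 91.2 and 59.9 in KO_TAC. The library labelled KO_sham 2 stood with the other sham libraries here, unlike its place for the inducible ligands. Cx3cl1 rose in KO_TAC (log2 difference 1.97, SE 0.35, edgeR adjusted p = 0.00254), in all 8 fits without 1 library, and was 1.55 with the haemoglobin term (adjusted p = 0.0971). Cxcl14, a constitutive ligand of stroma, averaged 30.9 ± 22.9 CPM (SD, n = 4) in KO_TAC and 23.4 ± 6.54 CPM (SD, n = 4) in KO_sham, and did not pass (adjusted p = 0.604).

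Inflammatory CC ligands recruit monocytes and T cells. Ccl2 (chr11:82035571-82037453, ENSMUSG00000035385), the main ligand of Ccr2, stood at 2.55, 2.47, 1.79 and 3.01 CPM in FF_sham, 2.91, 324, 407 and 3.74 in FF_TAC, 4.97, 72.1, 5.33 and 2.88 in KO_sham, and 144, 288, 582 and 577 in KO_TAC. The library labelled KO_sham 2 was again the lowest of the 7 haemoglobin-low ones, and the other 9 reached at most 5.33 CPM. Ccl2 rose in KO_TAC (log2 difference 4.23, SE 1.37, edgeR adjusted p = 0.0353), to 6.50 without KO_sham 2 (adjusted p = 0.011). The call was lost without KO_sham 1, 3 or 4 or KO_TAC 2, 3 or 4 (adjusted p up to 0.0864), and with the haemoglobin term the difference was 1.14 (adjusted p = 0.375).

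Ccl7, which neighbours Ccl2 on chromosome 11 and shares its receptor, moved in the same libraries. It was at 1.87, 2.75, 2.25 and 2.197 CPM in FF_sham, 2.46, 109.7, 109 and 2.21 in FF_TAC, 3.32, 54.7, 4.21 and 2.097 in KO_sham, and 72.7, 122, 158 and 135 in KO_TAC. KO_TAC did not overlap KO_sham and yet Ccl7 was not called (log2 difference 2.94, SE 1.15, edgeR adjusted p = 0.0697). Ccl4, a macrophage product that attracts T cells and monocytes, was at 0.0623, 0.110, 0.115 and 0.0628 CPM in FF_sham, 0.224, 10.9, 9.66 and 0.0567 in FF_TAC, 0.521, 12.3, 0.213 and 0.419 in KO_sham, and 17.3, 50.3, 56.2 and 48.3 in KO_TAC. Its KO_TAC values were all above the KO_sham values, and Ccl4 rose (log2 difference 3.72, SE 1.15, edgeR adjusted p = 0.0289). Without KO_sham 2 the difference was 6.76, and without KO_sham 1, 3 or 4 or KO_TAC 2 or 3 the call was lost (adjusted p up to 0.0750). Ccl3, the companion of Ccl4 at the same locus, was at 16.01, 34.1, 38.6 and 35.5 CPM in KO_TAC and 0.474, 16.8, 0.426 and 0.315 in KO_sham, without a call (log2 difference 2.81, SE 1.19, edgeR adjusted p = 0.0903).

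Ccl5, a T-cell product and attractant of T cells and monocytes, had the smallest adjusted p of the family. It stood at 0.561, 1.37, 0.404 and 0.439 CPM in FF_sham, 0.447, 4.73, 5.49 and 0.624 in FF_TAC, 0.852, 1.54, 0.586 and 1.42 in KO_sham, and 5.58, 20.1, 31.5 and 35.96 in KO_TAC. KO_TAC lay above every other floxed library, by a narrow margin for KO_TAC 1 over FF_TAC 3, and Ccl5 rose (log2 difference 4.41, SE 0.76, edgeR adjusted p = 0.00226), in all 8 fits without 1 library (4.11 to 4.74). With the haemoglobin term it was 2.81 (adjusted p = 0.0993). Of 7 T-cell markers 3 were tested and none was called higher, 1 being lower, when 14.3% of all genes rose and 11.5% fell. The sum of the 7 was 2.598 to 6.97 CPM in KO_TAC and 4.69 to 7.44 CPM in KO_sham. The other tested inflammatory CC ligands, the Ccr2 ligand Ccl12, the eosinophil attractants Ccl11 and Ccl24, and Ccl8, were not called (adjusted p = 0.0969, 0.618, 0.877 and 0.581).

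Of the 6 other CC ligands tested, 2 rose in KO_TAC against KO_sham, when 14.3% of all genes rose. Ccl9, a macrophage product and Ccr1 ligand, was at 4.74, 10.3, 6.29 and 8.48 CPM in FF_sham, 4.75, 11.6, 11.7 and 6.01 in FF_TAC, 15.1, 12.1, 13.2 and 9.86 in KO_sham, and 19.5, 23.2, 31.5 and 32.9 in KO_TAC. KO_TAC overlapped no other group and Ccl9 rose (log2 difference 1.10, SE 0.29, edgeR adjusted p = 0.0146), in all 8 fits without 1 library. Ccl22, a dendritic-cell ligand of Ccr4, was at 0, 0.385, 0 and 0.126 CPM in FF_sham, 0.112, 3.86, 2.21 and 0.340 in FF_TAC, 1.04, 1.05, 0.853 and 0.944 in KO_sham, and 4.35, 4.38, 8.08 and 11.4 in KO_TAC. Its KO_sham values, the library labelled KO_sham 2 included, were all close to 1 CPM and below all KO_TAC values, and Ccl22 rose (log2 difference 2.86, SE 0.75, edgeR adjusted p = 0.0148). The macrophage ligand Ccl6 averaged 12.3 ± 2.49 CPM (SD, n = 4) in KO_TAC and 16.8 ± 4.18 CPM (SD, n = 4) in KO_sham and was not called (adjusted p = 0.12). Neither were Ccl25 and Ccl27a, whose exons overlap opposite-strand genes, nor the scaffold copy of Ccl21a (adjusted p = 0.832, 0.707 and 0.389). Macrophage markers (11 genes) summed to 338 to 396 CPM in KO_TAC and 297 to 481 CPM in KO_sham. Of the 11, 1 was called, lower, when 11.5% of all genes fell. Their part in the ligand results was not tested.

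The chemotactic receptors fell or were not called. Ccr2, which draws blood monocytes toward Ccl2 and Ccl7, was at 1.18, 10.01, 3.23 and 2.83 CPM in FF_sham, 4.31, 1.24, 0.821 and 2.49 in FF_TAC, 16.9, 2.09, 11.7 and 8.39 in KO_sham, and 2.97, 0.831, 0.508 and 0.783 in KO_TAC. KO_sham 1 and 3 were the highest of the cohort, and the library labelled KO_sham 2 lay between KO_TAC 1 and the other KO_TAC libraries. Ccr2 fell in KO_TAC (log2 difference -2.88, SE 0.76, edgeR adjusted p = 0.0154), the call being lost without KO_TAC 3 (adjusted p = 0.0534), and with the haemoglobin term the difference was -1.03 (adjusted p = 0.487).

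The fractalkine receptor Cx3cr1, a mark of patrolling monocytes and resident macrophages, was at 3.93, 6.98, 5.14 and 3.202 CPM in FF_sham, 4.92, 5.85, 2.59 and 6.92 in FF_TAC, 13.1, 1.11, 9.43 and 9.49 in KO_sham, and 1.63, 11.2, 6.38 and 3.86 in KO_TAC. Its groups overlapped and it was not called (log2 difference -0.53, SE 0.59, edgeR adjusted p = 0.518). Cxcr4, the receptor of Cxcl12, averaged 4.65 ± 2.28 CPM (SD, n = 4) in KO_TAC and 6.54 ± 1.3002 CPM (SD, n = 4) in KO_sham (adjusted p = 0.264). Ccr1, Ccr10, Cxcr6 and the dendritic-cell receptor Xcr1 were not called either (adjusted p = 0.731, 0.38, 0.0948 and 0.994). Monocyte markers (6 genes, Ccr2 among them) summed to 38.9 to 61.98 CPM in KO_TAC and 57.2 to 87.001 CPM in KO_sham.

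**Figure D3:**
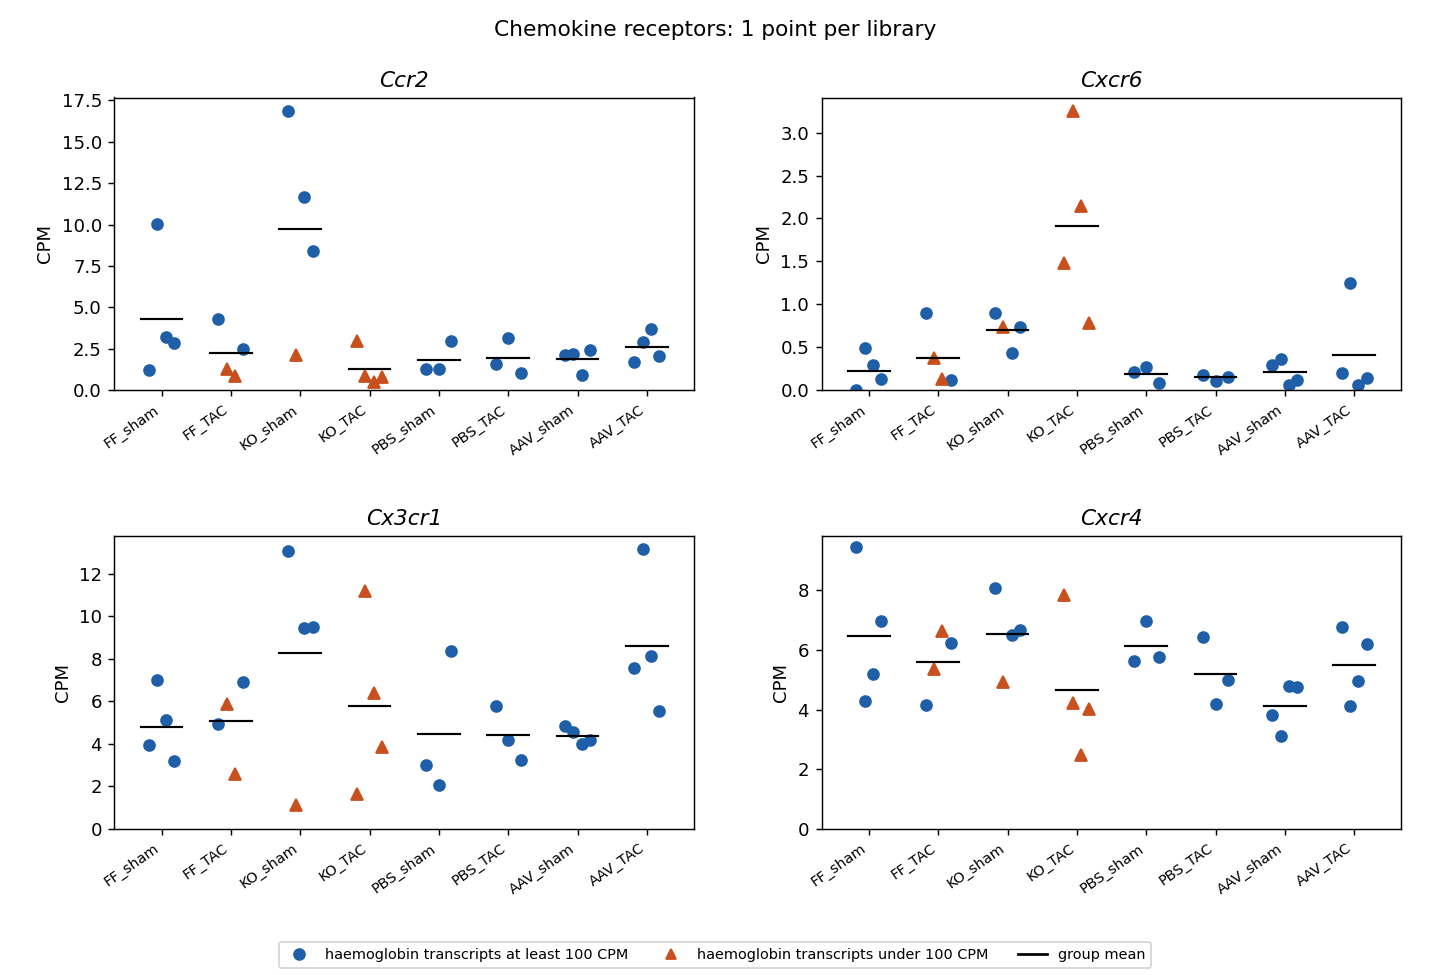
CPM of the receptors Ccr2, Cxcr6, Cx3cr1 and Cxcr4 in each of the 30 libraries by group, with triangles for the 7 libraries under 100 CPM of haemoglobin transcripts and bars at group means. Ccr2 is highest in KO_sham 1 and 3, with the triangle of the library labelled KO_sham 2 beside KO_TAC, and Cxcr6 is highest in KO_TAC 2.

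Atypical receptors shape gradients by removing chemokines. Ackr3, abundant on endothelium and mesenchyme, was at 70.1, 58.9, 72.3 and 63.3 CPM in FF_sham, 61.2, 140.1, 116 and 90.8 in FF_TAC, 58.7, 100.2, 61.6 and 59.6 in KO_sham, and 99.8, 57.7, 75.4 and 92.9 in KO_TAC. The highest values were in the libraries labelled FF_TAC 2, FF_TAC 3 and KO_sham 2, and KO_TAC was not called against KO_sham (log2 difference 0.23, SE 0.24, edgeR adjusted p = 0.489). Ackr1, which lets venular endothelium and red cells hold inflammatory chemokines, was at 0.249, 0.330, 0.0577 and 0.126 CPM in FF_sham, 0.0559, 0.187, 0.442 and 0.227 in FF_TAC, 0.189, 0.492, 0.373 and 0.472 in KO_sham, and 1.93, 0.982, 1.41 and 0.783 in KO_TAC. Ackr1 rose (log2 difference 1.76, SE 0.48, edgeR adjusted p = 0.017), with all KO_TAC libraries above all KO_sham libraries. The call was lost without KO_sham 1 (adjusted p = 0.0533), and the counts are few and share 361 exon bases with Cadm3 on the same strand.

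Ackr4 (chr9:104084157-104126933), a scavenger of Ccl19, Ccl21 and Ccl25, was at 4.74, 3.2997, 4.27 and 2.32 CPM in FF_sham, 2.63, 4.98, 5.87 and 6.29 in FF_TAC, 5.26, 4.61, 3.36 and 4.2997 in KO_sham, and 4.596, 15.03, 5.76 and 9.9998 in KO_TAC. KO_TAC 2 and 4 were high, KO_TAC 1 lay within KO_sham, and Ackr4 rose at the edge of the threshold (log2 difference 1.02, SE 0.35, edgeR adjusted p = 0.045). The call was lost without any 1 of the KO_sham libraries and without KO_TAC 2 or 4 (adjusted p up to 0.184). Exons of Ackr4 share 479 bases with Acad11 on the opposite strand. Ackr2, a scavenger of inflammatory CC ligands, was not called (log2 difference 0.87, SE 0.34, edgeR adjusted p = 0.0686).

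KO_TAC was next compared with FF_TAC to ask how the knockout changed the family under load. Of 38 members, 7 rose and 1 fell, when 14.3% of all genes were called, 7.53% higher and 6.8% lower. Ccl5, Ccl9, Cxcl10, Cxcl13, Cx3cl1, Ackr1 and Cxcr6 rose and Cxcl12 fell. Of these, Ccl5, Ackr1 and Cxcr6 passed the filter in the floxed cohort alone, so their rise is partly given by it. The neutrophil attractants Cxcl1 and Cxcl2 and the monocyte attractants Ccl2 and Ccl7 were not called (adjusted p = 0.786, 0.716, 0.548 and 0.485), the libraries labelled FF_TAC 2 and 3 lying within or above the range of KO_TAC. A fit of these 2 groups alone called 3 members, against 3.79% of genes, and the fit with the haemoglobin term called 10, against 7.23% of genes, of which 6 were shared with the 8 and Ccl3, Ccl4, Ccl8 (higher) and Ackr3 (lower) were not. Among the haemoglobin-low libraries alone (4 against 2) none was called, against 0% of genes. With FF_TAC 2, FF_TAC 3 and KO_sham 2 left out, again after seeing the data, 16 members rose and 1 fell, against 22.4% of genes. Of these, 6 were shared with the 8, while Cxcl13 and Cxcr6 were not called (edgeR adjusted p = 0.0903 and 0.131). Single libraries left out gave 4 calls without FF_TAC 4 (against 7.06% of genes) and up to 13 without KO_TAC 1 (24.3%).

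Ccl9 had the smallest adjusted p of these (log2 difference 1.68, SE 0.30, edgeR adjusted p = 0.00254), from 4.75 to 11.7 CPM in FF_TAC and 19.5 to 32.9 in KO_TAC. Ccl5 (log2 difference 3.08, SE 0.70, edgeR adjusted p = 0.00984) and Ackr1 (log2 difference 2.51, SE 0.52, edgeR adjusted p = 0.00569) were also higher in every KO_TAC library than in any FF_TAC library. Both calls held in all 8 fits without 1 library. The haemoglobin term left both in place (edgeR adjusted p = 0.0222 and 0.0319), and also the calls of Ccl9 and Cxcl12 (adjusted p = 0.0116 and 0.0461). This term is set by the libraries labelled FF_TAC 2, FF_TAC 3 and KO_sham 2. Cxcl12 fell (log2 difference -1.14, SE 0.23, edgeR adjusted p = 0.00558) without overlap, FF_TAC 2 and 3 lying between KO_TAC and FF_TAC 1 and 4. Cxcl10 rose (log2 difference 3.24, SE 0.99, edgeR adjusted p = 0.0409), KO_TAC 1 at 24.9 CPM lying just above FF_TAC 3 at 21.03. Its call was lost without FF_TAC 1 or 4 or KO_TAC 3 or 4 (adjusted p up to 0.110). Of 11 macrophage markers, 4 were called higher in KO_TAC than in FF_TAC, when 7.53% of genes rose. They summed to 338 to 396 CPM in KO_TAC and 235 to 264 CPM in FF_TAC. Of 5 endothelial markers, 4 were called lower, when 6.8% of genes fell. The part of these cells in the Ccl9, Cxcl12 and other results was not tested.

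Cx3cl1 rose with overlap (log2 difference 1.11, SE 0.34, edgeR adjusted p = 0.0418), and without FF_TAC 1 or 4 or KO_TAC 3 or 4 it was not called (adjusted p up to 0.169). Cxcl13, the ligand that draws B cells into follicles, was at 0, 0.550, 0.346 and 0 CPM in FF_sham, 0.392, 0.0622, 0 and 0.0567 in FF_TAC, 1.37, 0.799, 0.213 and 0.629 in KO_sham, and 6.52, 3.93, 1.299 and 0.120 in KO_TAC. Cxcl13 rose (log2 difference 4.45, SE 1.14, edgeR adjusted p = 0.0178), KO_TAC 4 lying within FF_TAC, and without FF_TAC 4 the call was lost (adjusted p = 0.0661). B-cell markers (5 genes) summed to 22.9 CPM in KO_TAC 1 and 28.7 CPM in PBS_sham 2 and to no more than 4.75 CPM elsewhere. Cxcl13 was also high in those 2 libraries (6.52 and 5.97 CPM), as was the B-cell receptor Cxcr5 (2.32 and 4.11 CPM), but in KO_TAC 2 Cxcl13 stood at 3.93 CPM with 3.17 CPM of markers. The part of B cells in the Cxcl13 result was not tested. Cxcr6, the receptor of Cxcl16 on T and NKT cells, was at 0.895, 0.373, 0.126 and 0.113 CPM in FF_TAC and 1.48, 3.25, 2.15 and 0.783 in KO_TAC. FF_TAC 1 lay above KO_TAC 4, and Cxcr6 rose (log2 difference 2.32, SE 0.66, edgeR adjusted p = 0.0307), a call lost without FF_TAC 2, 3 or 4 or KO_TAC 2 or 3 (adjusted p up to 0.103).

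Set beside the other 3 haemoglobin-low libraries, all 4 KO_TAC libraries were higher for 8 of the 38 members (Ackr1, Ccl4, Ccl5, Ccl8, Ccl9, Ccl22, Cxcl10 and Cxcr6), against 6.16% of genes, and lower for 3 (Ackr3, Ccl24 and Cxcl12), against 7.37% of genes. For Cxcl1, Ccl2 and Ccl7 they overlapped. Ackr1, Ccl4, Ccl5, Ccl22 and Cxcr6 passed the filter in the floxed cohort alone, so their place is partly given by it. The 3 libraries carry different labels and are not a group, so no test was made.

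**Figure D4:**
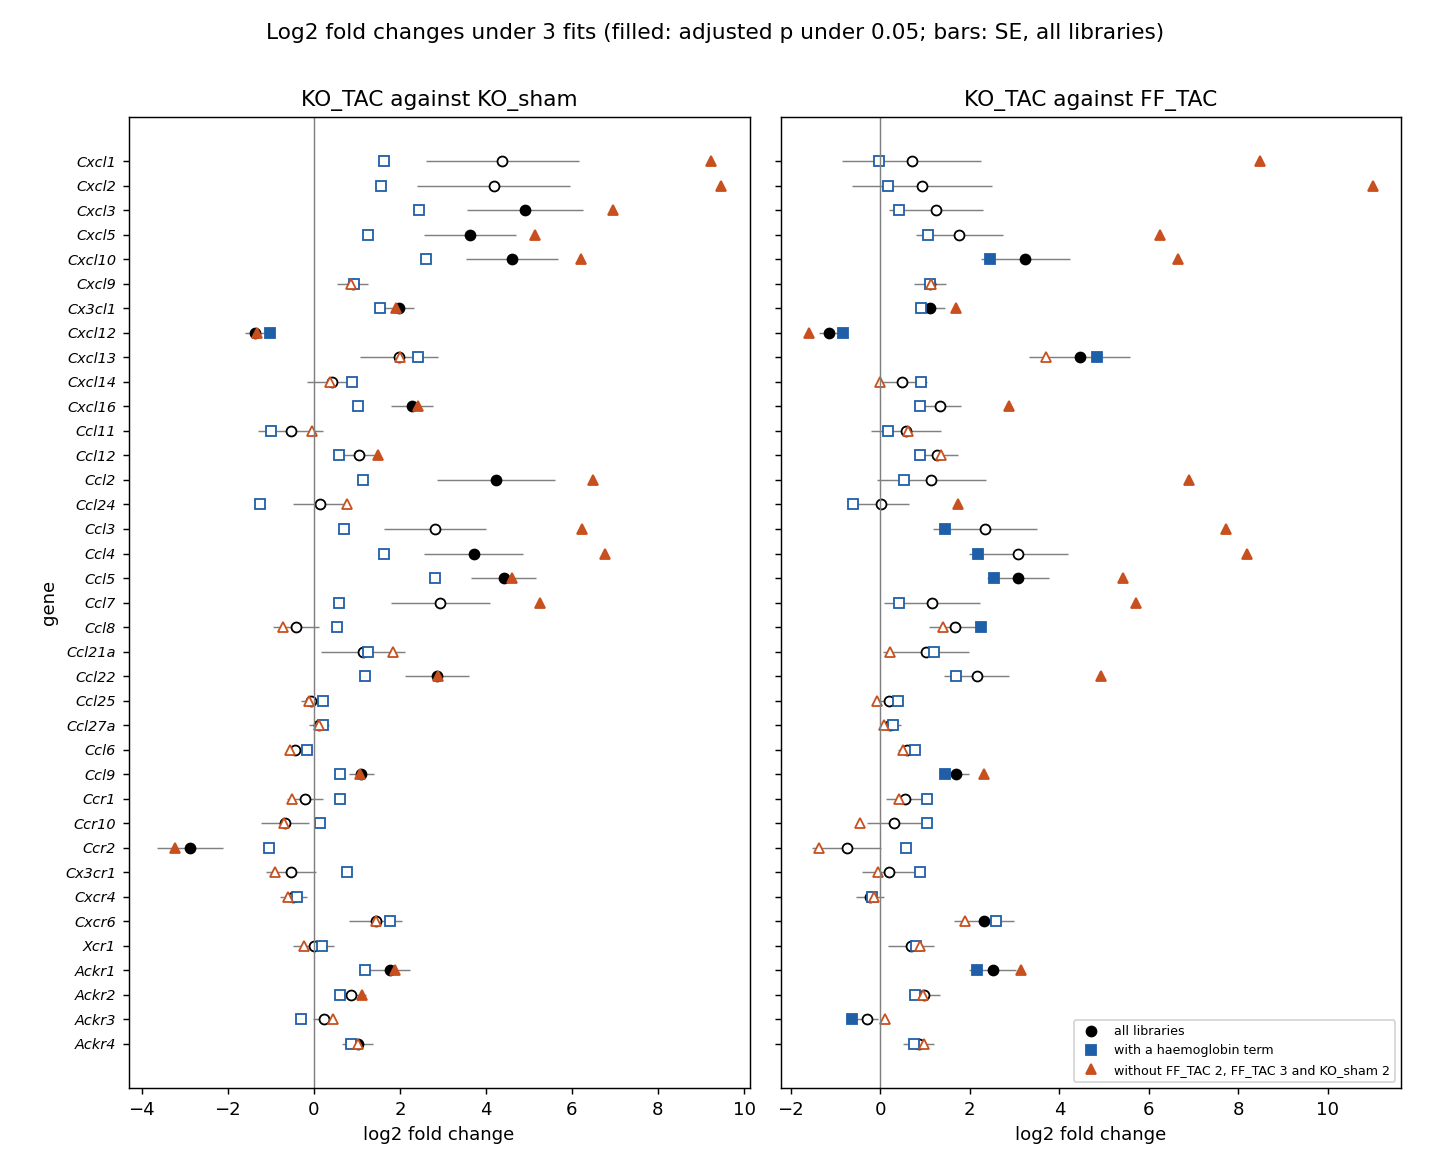
Log2 fold changes of 37 of the 38 tested members in KO_TAC against KO_sham (left) and against FF_TAC (right), in the fit of all libraries (circles, with SE), with a haemoglobin term (squares) and without FF_TAC 2, FF_TAC 3 and KO_sham 2 (triangles), filled where the adjusted p was under 0.05. Inducible ligands move toward 0 with the term and away from it without the 3 libraries, while Cxcl12 is filled in all fits. Cxcl3 without the 3 libraries is not drawn on the right, since its FF_TAC count is then 0.

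FF_TAC was compared with FF_sham to ask what TAC did to floxed controls. No member was called, as was no gene (0% of 15596), although 16 members had an unadjusted p under 0.05, against 11.1% of genes, and DESeq2 called 11, all higher, against 1.07% of genes. Cxcl1 differed by 9.12 on the log2 scale (SE 2.29, edgeR adjusted p = 0.328) and Ccl2 by 6.21 (SE 1.54, adjusted p = 0.328). The high values were those of the libraries labelled FF_TAC 2 and 3, and with FF_TAC 1 and 4 alone the differences were 1.34 and 0.43 (adjusted p = 0.877 and 0.908). Ackr4 was 2.63, 4.98, 5.87 and 6.29 CPM in FF_TAC and 4.74, 3.2997, 4.27 and 2.32 in FF_sham, with overlap (log2 difference 0.42, SE 0.36, edgeR adjusted p = 0.657).

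KO_sham was compared with FF_sham to ask what the knockout did without load. Again no member and no gene was called (0% of 15596), 12 members had an unadjusted p under 0.05, against 5.22% of genes, and DESeq2 called Cxcl2, against 0.618% of the genes it gave an adjusted p. The lowest unadjusted p belonged to Ccl12, which draws monocytes and was measured as 2.27, 4.73, 2.34 and 1.05 CPM in KO_sham and 0.935, 0.935, 0.865 and 0.188 CPM in FF_sham (log2 difference 1.80, SE 0.50, edgeR adjusted p = 0.798). Ccl8, whose receptor in mice is Ccr8, came next with 13.5, 2.03, 4.32 and 3.46 and 0.436, 2.14, 2.31 and 0.753 CPM (log2 difference 2.02, SE 0.57, edgeR adjusted p = 0.798). KO_sham lay above FF_sham for Ccl12 and overlapped it for Ccl8. Cxcl1, Ccl2 and the other inducible ligands differed mainly through the library labelled KO_sham 2.

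The interaction, whether TAC acted differently in knockouts, called 0 of 38 members, against 0.0449% of genes (0.0256% higher, 0.0192% lower), with 6 members at an unadjusted p under 0.05 (against 13.1% of genes) and 0 called by DESeq2 (2.38%). Cxcl12 came nearest (log2 difference -1.01, SE 0.33, edgeR adjusted p = 0.2). Left without FF_TAC 2, FF_TAC 3 and KO_sham 2, a choice made after seeing the data, the same test called 13 members, against 5.06% of genes. Cxcl1 was then 7.90 (edgeR adjusted p = 2.4e-05), Ccl2 6.07 (0.000484) and Cxcl12 -1.41 (0.00263). The libraries left out held the high Cxcl1 and Ccl2 values of FF_TAC and KO_sham. A large interaction for these ligands is therefore given by leaving them out, and their p-values are no evidence for it. In that fit KO_TAC holds all haemoglobin-low libraries, so the interaction and the split cannot be told apart.

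In the AAV9 cohort, where every library held at least 293.9 CPM of haemoglobin transcripts, the inducible ligands stayed low. Across the 14 libraries Cxcl1 ranged from 0.981 to 7.78 CPM, Ccl2 from 1.38 to 11.5, Cxcl10 from 0.376 to 1.31 and Cxcl2 from 0.169 to 1.38. TAC was tested in PBS mice first, and 1 of 30 members was called, against 0.0318% of genes (0.0127% higher, 0.0191% lower). This was Ackr4, at 3.28, 2.13 and 2.95 CPM in PBS_sham and 8.45, 7.56 and 12.6 CPM in PBS_TAC. All PBS_TAC libraries lay above all PBS_sham libraries and Ackr4 rose (log2 difference 1.80, SE 0.26, edgeR adjusted p = 0.023). Atrial markers (3 genes) summed to 499 to 2506 CPM in PBS_sham and 1.998 to 1674 CPM in PBS_TAC. The call was lost with the atrial marker Myl7 as a covariate (log2 difference 1.71, adjusted p = 0.2), in the fit of these 2 groups alone (adjusted p = 0.491), and without PBS_sham 2 or any 1 PBS_TAC library (adjusted p up to 0.167). DESeq2 called Ackr4, Cx3cl1 and Xcr1, against 1.99% of genes. Cx3cl1 was 11.2, 9.598 and 13.7 CPM in PBS_sham and 19.1, 15.1 and 14.5 in PBS_TAC (log2 difference 0.53, SE 0.13, edgeR adjusted p = 0.142), and Xcr1 was 0.268, 0.320 and 0.205 and 0.856, 1.38 and 0.882 CPM (log2 difference 1.99, SE 0.51, edgeR adjusted p = 0.142).

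TAC after AAV9.Cpt1a called 0 of 30 members, against 0.00635% of genes, with 10 members at an unadjusted p under 0.05 (against 7.05% of genes) and 4 called by DESeq2 (0.597%). Ackr4 was again higher after TAC in every library, at 2.45, 3.88, 2.94 and 2.26 CPM in AAV_sham and 5.79, 6.89, 4.58 and 4.98 CPM in AAV_TAC (log2 difference 0.95, SE 0.22, edgeR adjusted p = 0.218). Cxcl1 had the lowest unadjusted p, at 6.998, 4.41, 7.78 and 1.96 CPM in AAV_sham and 0.981, 1.24, 1.04 and 1.17 CPM in AAV_TAC (log2 difference -2.25, SE 0.48, edgeR adjusted p = 0.173). Ccl7 showed the same order, at 17.03, 3.58, 6.75 and 2.74 and 1.47, 0.847, 1.34 and 1.69 CPM (log2 difference -2.49, SE 0.56, edgeR adjusted p = 0.174). So did Ccl11, an eosinophil attractant of fibroblasts, at 10.2, 4.295, 3.23 and 6.12 and 0.883, 0.113, 1.59 and 1.88 CPM (log2 difference -2.41, SE 0.56, edgeR adjusted p = 0.198). For these 3 ligands the sham libraries were all above the TAC libraries, and DESeq2 and edgeR without a filter called all 3 lower, the latter against 0.0925% of genes.

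**Figure D5:**
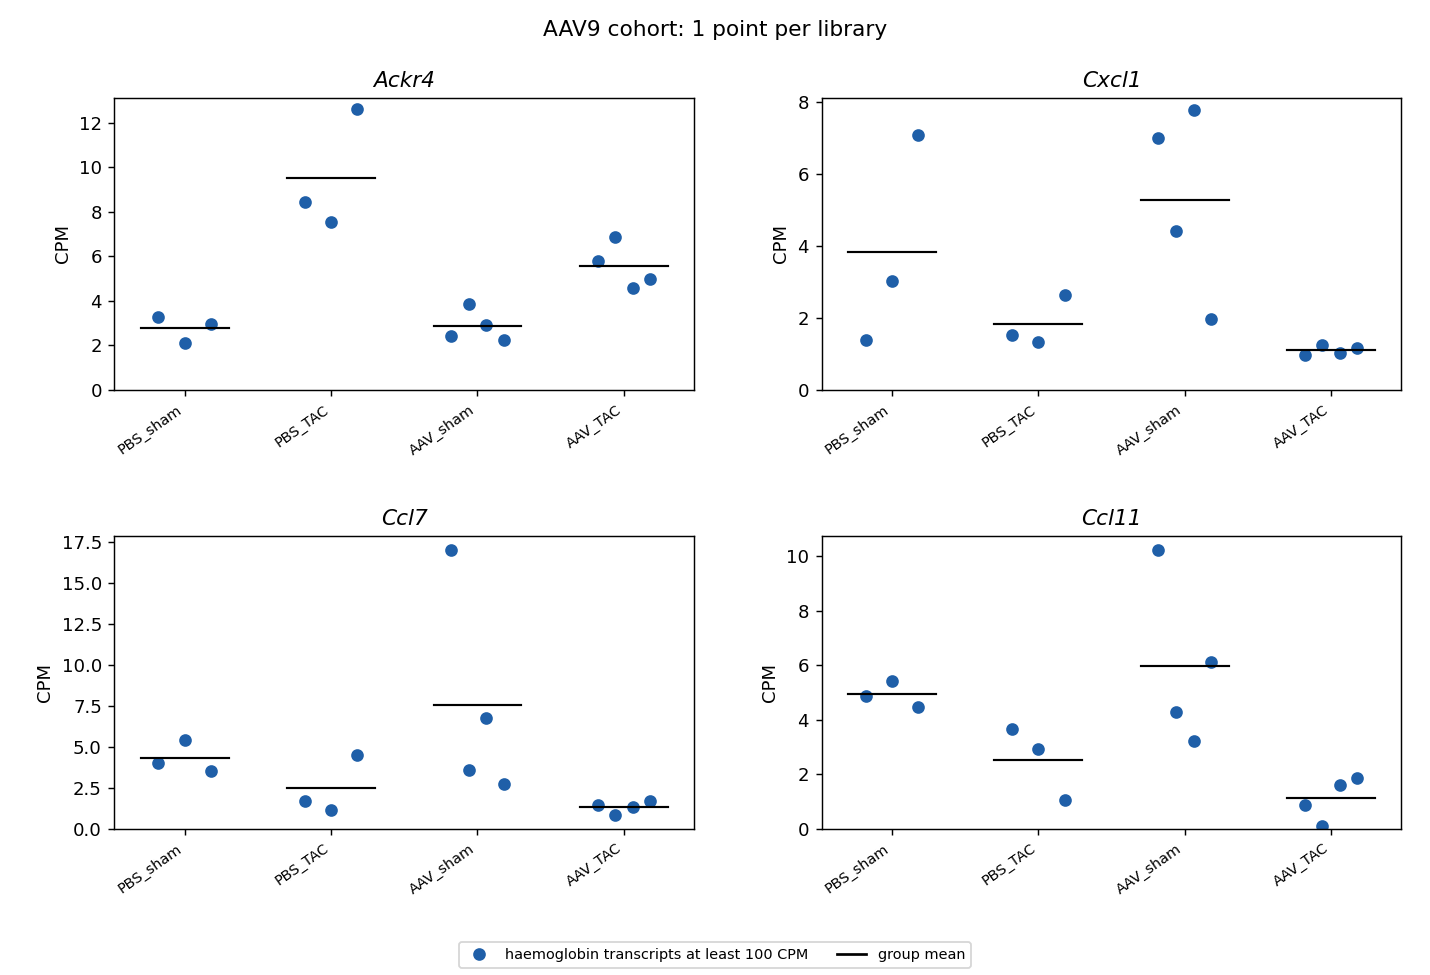
CPM of Ackr4, Cxcl1, Ccl7 and Ccl11 in each of the 14 libraries of the AAV9 cohort by group, with bars at group means. Ackr4 is higher after TAC in PBS mice and in AAV9.Cpt1a mice, and the 3 ligands are lower in all AAV_TAC than in all AAV_sham libraries.

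AAV9.Cpt1a was compared with PBS after sham and after TAC. After sham 0 of 30 members were called, against 0.0127% of genes. An unadjusted p under 0.05 was found for 5 members, against 20.7% of genes, and DESeq2 called 0, against 1.98%. After TAC 0 were called, against 0.0381% of genes, 0.0127% higher and 0.0254% lower. Here 3 members had an unadjusted p under 0.05, against 3.19% of genes, and DESeq2 called 0, against 0.233%. Ackr4 after TAC was lower with the vector in every library (log2 difference -0.79, SE 0.23, edgeR adjusted p = 0.955). Cx3cl1 after sham was higher with the vector in every library (log2 difference 0.39, SE 0.13, edgeR adjusted p = 0.164). Vector by TAC as an interaction called 0 members, against 0.00635% of genes (2 at an unadjusted p under 0.05, against 6.95%, and 0 by DESeq2, against 0.0787%), and was -0.85 for Ackr4 (SE 0.34, adjusted p = 0.688). The difference between the cohorts in the TAC response was not tested.

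Of the chemokine-related genes outside the symbol rule, 3 were tested. Ccrl2, an atypical receptor that presents chemerin, rose in KO_TAC against KO_sham (log2 difference 1.30, edgeR adjusted p = 0.015) and ranged over 10.2 to 21.3 CPM in KO_sham and 20.4 to 44.3 CPM in KO_TAC. The platelet chemokine Ppbp fell (log2 difference -2.59, edgeR adjusted p = 0.0443), and Pf4, the other platelet chemokine, was at 13.2 to 29.98 CPM in KO_TAC and 11.5 to 18.3 CPM in KO_sham and was not called (adjusted p = 0.0963).

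Genes upstream and downstream of chemokines were read from lists that were drawn up with earlier results of these data known. Of 17 inducers and NF-kB feedback genes, 16 were tested in KO_TAC against KO_sham and 9 rose, with none lower, when 14.3% of all genes were called higher. They were the NF-kB subunits Nfkb1, Nfkb2, Rela and Relb, the inhibitors Nfkbia (log2 difference 3.21, edgeR adjusted p = 0.00733), Nfkbie and Tnfaip3, the interleukin-17 receptor Il17ra and the interferon-response factor Irf1 (log2 difference 2.67, edgeR adjusted p = 0.0123). The median log2 difference of the list was 2.62, against 0.02 over all genes. It was also 2.70 in FF_TAC against FF_sham and 1.02 in KO_sham against FF_sham, where none of the 16, and no gene, was called. In KO_TAC against FF_TAC none of the 16 was called.

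Adhesion molecules at the vessel wall, which arrest the cells that chemokines attract, were read in the same way. Of 10, Icam1 (log2 difference 4.61, edgeR adjusted p = 0.015), Vcam1 (log2 difference 3.51, edgeR adjusted p = 0.00747), Selp and Sele rose in KO_TAC against KO_sham, when 14.3% of all genes rose, and the list median was 0.03. Against FF_TAC, when 7.53% of genes rose, 2 did, the leukocyte integrins Itga4 and Itgam (log2 difference 1.43, edgeR adjusted p = 0.00839 for Itga4). The 10 summed to 290.1 to 2423 CPM in the 7 haemoglobin-low libraries and 68.6 to 98.1 CPM in the other 9.

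Of 25 genes of receptor signalling, 8 rose and 1 fell in KO_TAC against KO_sham, when 14.3% of all genes rose and 11.5% fell, with a list median of 0.23. The regulators Rgs1 (log2 difference 2.46, edgeR adjusted p = 0.0304) and Rgs16, which end Gi signalling, and the phosphoinositide 3-kinase subunit Pik3r5 were among the 8, and the receptor kinase Grk6 fell. Against FF_TAC 8 rose, when 7.53% of genes did, and none fell, with a list median of 0.39, among them Pik3r5 (log2 difference 2.34, edgeR adjusted p = 0.0114), Rac2 and Fgr. Of 12 early-response genes, 3 rose in KO_TAC against KO_sham (Fosl1, Ier3 and Myc), when 14.3% of all genes did, and none against FF_TAC, and the 12 summed to 1921 to 4395 CPM in the 7 haemoglobin-low libraries and 152 to 209 CPM in the other 9.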

How the data were processed

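RNA of mouse hearts was sequenced as 30 stranded poly(A) libraries, per the labels' protocols. The authors deposited whole-number counts per gene; reads were aligned with HISAT2 2.1.0 to GRCm38 and counted with featureCounts of Subread 1.5.1, per the submitters' processing notes. The strand setting and annotation release are not given in the sources used here, and without the strand setting reads of overlapping genes cannot be told apart. GENCODE M21 symbols matched 55227 of the 55487 rows, and rows without a symbol held 0.00336% of counts. No column was left unmapped. None of the 42 pairs of libraries of 1 group agreed within sampling noise (chi-square per degree of freedom 6.29 to 233.9), so no pair was merged as repeat deposits of 1 library; this does not show that they come from separate hearts.

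Each cohort was fitted with edgeR 4.0.16 (R 4.3.3, limma 3.58.1): filterByExpr, TMM scaling, a design of 4 groups and the quasi-likelihood test, with Benjamini-Hochberg adjustment over all genes tested (15596 floxed, 15745 AAV9) and a threshold of 0.05. CPM divides counts by the TMM-scaled library total over all 30 libraries. The script was tested on simulated data. The alternatives were DESeq2 1.42.0, RLE scaling, no filter, only the groups compared, a replicate block, a haemoglobin term (limit 100 CPM summed), a Myl7 covariate and leaving out each library. Leaving out FF_TAC 2, FF_TAC 3 and KO_sham 2 together was added after seeing the data. Every library's value is given for Cxcl1, Ccl2, Ackr4, the members with the highest levels and the called members without overlap between groups; some others were added after their values were seen. The members and lists were chosen with earlier results of these data known. Some results are not reported here.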

Additional observations from a re-analysis of the deposited data

Results flagged for a closer look

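In 13 of 96 member-by-group sets of 4 libraries examined, 1 library lay far from the other 3 by Dixon's criterion at the 95% level, which chance does in about 1 set in 20. In the library labelled KO_sham 2 this held for 9 members, all higher than in KO_sham 1, 3 and 4: Cxcl1 at 141 CPM, Cxcl2 at 53.8 CPM, Cxcl3 at 0.861 CPM, Cxcl5 at 7.01 CPM, Cxcl10 at 11.3 CPM, Ccl2 at 72.1 CPM, Ccl4 at 12.3 CPM, Ccl7 at 54.7 CPM and Ackr3 at 100.2 CPM. In FF_sham 2, Ccl5 stood above the other FF_sham libraries at 1.37 CPM and Cxcl3 at 0.0550 CPM, the latter a single count. Cxcl5 stood apart in AAV_sham 1 at 1.27 CPM and in AAV_TAC 3 at 0.550 CPM.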

How the results depend on the processing

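The counts of called members depended on the tool, the spread estimate and single libraries; the share of all genes called in the same fit follows each count. DESeq2 called 11 members in FF_TAC against FF_sham (1.07%), 1 in KO_sham against FF_sham (0.618%), 17 in KO_TAC against FF_TAC (18.2%), 3 in PBS_TAC against PBS_sham (1.99%) and 4 in AAV_TAC against AAV_sham (0.597%). Fitting only the groups compared gave 3 in KO_TAC against FF_TAC (3.79%), 0 in PBS_TAC against PBS_sham (0%) and 1 in AAV_TAC against AAV_sham (0.971%), where no filter on low counts gave 3 (0.0925%). With the haemoglobin term 1 member was called in KO_TAC against KO_sham (1.75%), and among haemoglobin-low libraries alone 0 there (0%) and 0 in KO_TAC against FF_TAC (0%); fewer libraries enter these last fits. With the 3 doubted libraries left out, 17 were called in KO_TAC against FF_TAC (22.4%) and 13 in the knockout by TAC interaction (5.06%). With the Myl7 covariate 0 were called in PBS_TAC against PBS_sham (0%). Leaving out 1 library at a time gave 8 (17.9%) to 20 (20%) calls in KO_TAC against KO_sham, 4 (7.06%) to 13 (24.3%) in KO_TAC against FF_TAC, 0 to 5 (11.1% without PBS_sham 1) in PBS_TAC against PBS_sham and 0 to 2 (17.4% without PBS_sham 1) in AAV_sham against PBS_sham. The cause of these shifts was not tested. RLE scaling changed no count beyond 1.5 times, and no called member reversed its direction under any alternative run.

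Same-numbered libraries correlated between -0.52 and 0.45 in their deviations from group means, in no comparison above 0.1 for every pair. For KO_TAC against FF_TAC the values were 0.45, 0.30, 0.13 and -0.03. The labels state no pairing, and these few correlations cannot show whether there was any. The replicate block called 18 members in KO_TAC against KO_sham (24.9%), 12 in KO_TAC against FF_TAC (13.6%) and 0 in PBS_TAC against PBS_sham (0.0127%). Depth limits the low members: 3 counts equal 0.123 to 0.227 CPM.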
